A study of Mus musculus with 2 samples.

Results

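Kcnk3 and Slc35f6 are neighbouring genes on mouse chromosome 5, both transcribed from the + strand, and they were chosen by the number of DNase-seq peaks around them in the adrenal gland. In this assay nuclei are treated with the nuclease DNase I, which cuts open DNA most readily, so that active promoters and enhancers stand out as peaks of cut sites. The members are 2 of 21911 protein-coding genes, and all intervals in their gene bodies, in the space between them and in flanks of 50 kb were used. This window, chr5:30538170-30709729 on mm10, is 171.56 kb long. It held 65 of the 157595 peaks of replicate 1 and 94 of the 166206 peaks of replicate 2. Because the peak counts of these libraries chose the genes, the counts below describe the locus, and no test was made of them.

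The study holds 1 group of 2 DNase-seq libraries, biological replicates 1 and 2, from the whole adrenal gland of 36 days old female mice. The strain was B6CASTF1/J from The Jackson Laboratory, the F1 hybrid of C57BL/6J and the wild-derived CAST/EiJ, with no treatment and no engineered allele named in the labels. The labels give both libraries the same donor record and number the animals differently, so each replicate was treated as another animal, and their spread is the only error available. Of 7 markers of the adrenal cortex, 7 had a promoter peak in each library (median height 6.31 and 9.47 in replicates 1 and 2). For the medulla it was 4 and 5 of 6 markers, for kidney 1 and 2 of 5, and for fat 3 and 3 of 4, where 68.6% and 69.6% of all protein-coding genes had one. The gland holds both cortex and medulla, and fewer cells with an open site cannot be told apart from less opening per cell.

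Kcnk3 encodes TASK-1, a two-pore-domain potassium channel that passes a background current and closes when the outside of the cell turns acidic. In the zona glomerulosa, the outer layer of the adrenal cortex, such background currents hold the membrane potential negative, and depolarization opens calcium channels and drives aldosterone synthesis. Slc35f6 encodes a membrane protein of the solute carrier 35 family. Peaks mark open promoters and distal elements, and footprints are short stretches inside them that are protected from cutting, as by a bound protein.

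The sequences that the results turn on are those of the 2 member promoters and of 7 distal sites. They are given 5′ to 3′ on the + strand of the C57BL/6J reference (RefSeq GRCm38.p6, the build of mm10), and the CAST/EiJ allele carried by the same animals is not shown. Capitals mark bases that lay in a footprint of both libraries. Each promoter stops at its annotated transcription start site (TSS), and distal sites are named by the distance of their centre from the TSS of Kcnk3. The sites at -36.7, -13.6, 3.31 and 16.9 kb are shown because each holds an element for the steroidogenic regulator SF-1 (AAGGTCA or its reverse complement TGACCTT) that touches a footprint of each library. At -36.7 kb it lay across a pair of footprints in replicate 2, with 1 base between them, and at the other 3 sites it lay wholly inside a footprint of each library. The sites at 26.3, 29.9 and 50.1 kb are shown because they were the tallest of the remaining distal sites. Of the site at 3.31 kb, which is longer, the first 300 bases are printed.
Kcnk3 promoter, chr5:30588021-30588169: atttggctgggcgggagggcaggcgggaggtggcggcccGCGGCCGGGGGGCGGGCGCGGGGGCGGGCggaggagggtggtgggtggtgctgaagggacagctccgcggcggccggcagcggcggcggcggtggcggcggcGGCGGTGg
Slc35f6 promoter, chr5:30647821-30647932: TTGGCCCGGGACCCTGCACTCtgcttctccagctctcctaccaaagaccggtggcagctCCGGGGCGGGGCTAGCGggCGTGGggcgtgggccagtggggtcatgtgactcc
Site at -36.7 kb, between genes, chr5:30551341-30551540: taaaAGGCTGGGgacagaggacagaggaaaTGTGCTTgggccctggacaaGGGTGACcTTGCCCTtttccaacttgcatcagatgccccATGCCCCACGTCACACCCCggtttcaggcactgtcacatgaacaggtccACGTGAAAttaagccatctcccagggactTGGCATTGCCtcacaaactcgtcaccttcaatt
Site at -13.6 kb, intron of the non-coding gene Gm9899, chr5:30574461-30574680: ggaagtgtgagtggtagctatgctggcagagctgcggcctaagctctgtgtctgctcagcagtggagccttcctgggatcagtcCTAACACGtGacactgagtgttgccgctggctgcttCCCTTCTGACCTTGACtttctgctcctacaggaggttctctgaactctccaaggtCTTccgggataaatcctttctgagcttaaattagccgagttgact
Site at 3.31 kb, intron of Kcnk3, chr5:30591321-30591620: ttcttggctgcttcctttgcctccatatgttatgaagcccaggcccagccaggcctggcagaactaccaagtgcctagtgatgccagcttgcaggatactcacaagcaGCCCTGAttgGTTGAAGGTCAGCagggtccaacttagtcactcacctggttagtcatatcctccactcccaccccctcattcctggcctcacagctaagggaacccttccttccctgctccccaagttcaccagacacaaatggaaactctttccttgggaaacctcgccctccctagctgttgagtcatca
Site at 16.9 kb, intron of Kcnk3, chr5:30604981-30605200: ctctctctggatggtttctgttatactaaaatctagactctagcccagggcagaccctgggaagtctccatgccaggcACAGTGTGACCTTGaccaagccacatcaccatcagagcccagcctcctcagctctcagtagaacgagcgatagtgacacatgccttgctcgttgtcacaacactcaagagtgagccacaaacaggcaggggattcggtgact
Site at 26.3 kb, intron of Kcnk3, chr5:30614321-30614520: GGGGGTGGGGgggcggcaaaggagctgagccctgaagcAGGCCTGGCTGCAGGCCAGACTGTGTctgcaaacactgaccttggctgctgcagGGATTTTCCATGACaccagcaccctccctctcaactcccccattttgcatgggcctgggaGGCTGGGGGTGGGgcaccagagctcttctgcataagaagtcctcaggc
Site at 29.9 kb, intron of Kcnk3, chr5:30617981-30618180: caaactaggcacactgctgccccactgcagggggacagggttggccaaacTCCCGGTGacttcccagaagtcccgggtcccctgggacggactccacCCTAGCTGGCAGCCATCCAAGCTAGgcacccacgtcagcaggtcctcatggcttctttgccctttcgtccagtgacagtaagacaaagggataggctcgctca
Site at 50.1 kb, between Kcnk3 and Slc35f6, chr5:30638141-30638340: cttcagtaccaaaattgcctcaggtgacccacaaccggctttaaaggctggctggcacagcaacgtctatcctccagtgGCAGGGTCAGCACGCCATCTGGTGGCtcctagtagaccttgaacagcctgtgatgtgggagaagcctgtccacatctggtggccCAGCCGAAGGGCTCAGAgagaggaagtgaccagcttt

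Both members had an open promoter in both libraries. The Kcnk3 promoter peak, chr5:30588021-30588220, was centred 50 bp before the TSS and had the same borders in both libraries. Its height, the signal that the authors give each peak, was 7.55 in replicate 1 and 8.70 in replicate 2 (8.13 ± 0.815, SD, n = 2). It stood between lower peaks centred at -886 bp (1.66) and 731 bp (1.64) from the TSS in replicate 1, and replicate 2 had the same pair at 1.93 and 1.66. The Slc35f6 peak started at the same base in both libraries, covered chr5:30647821-30648000 in replicate 1 and ended 20 bp earlier in replicate 2. It was the tallest peak of the whole window, at 11.95 and 17.9 (14.9 ± 4.24, SD, n = 2), and replicate 2 alone added a peak of 0.768 inside the gene. Slc35f6 was thus the taller promoter in each library. Against all genes both were moderate, at percentiles 67.7 and 61.1 of promoter height for Kcnk3 and 82.9 and 83.1 for Slc35f6.

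The 2 promoters differed in sequence. The printed bases of the Kcnk3 promoter were 83.9% G or C with 23 CpG, and those of the Slc35f6 promoter 69.6% with 7. The full Kcnk3 peak held 4 GC boxes (GGGCGG, the element read by Sp and KLF factors), of which 3 touched footprints of both libraries and 2 lay wholly inside them, and the Slc35f6 peak held 1, which lay wholly inside footprints of both. Of the GC boxes in all sites of chromosome 5, 30.8% touched a footprint of both libraries and 17.5% lay inside one of each. The GC box was added to the search after the sequences had been seen. In the whole window, promoters included, 5 of 65 peaks (7.69%) and 7 of 94 (7.45%) held it, against 15.1% and 15.6% of all peaks. Of the 300-base promoters in the RefSeq table, 35.7% held a GC box. That table matched 1 of the 2 members, Slc35f6.

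Peaks were densest in the body of Kcnk3 and in the space between the genes. The body of Kcnk3, 37.102 kb long, held 25 peaks in replicate 1 and 48 in replicate 2 (36.5 ± 16.3, SD, n = 2), or 6.74 and 12.9 per 10 kb. The space between the genes held 15 and 22 peaks, or 6.62 and 9.71 per 10 kb, so that in replicate 1 it was about as dense as Kcnk3. The upstream flank held 19 and 17 and the downstream flank 4 and 4. The body of Slc35f6 itself, 11.797 kb long, held only 2 and 3 peaks. Most peaks counted for Slc35f6, 37 and 61 in its body with 50 kb on each side, were therefore peaks of its neighbour's 3′ part and of the space between the genes. Centres of neighbouring peaks lay at a median distance of 770 and 590 bp in the window, against 5500 and 5079 bp over the genome. Of the distances in the window, 40 of 64 (62.5%) and 67 of 93 (72.0%) were under 1 kb, against 22.9% and 24.6% of all.

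**Figure D1:**
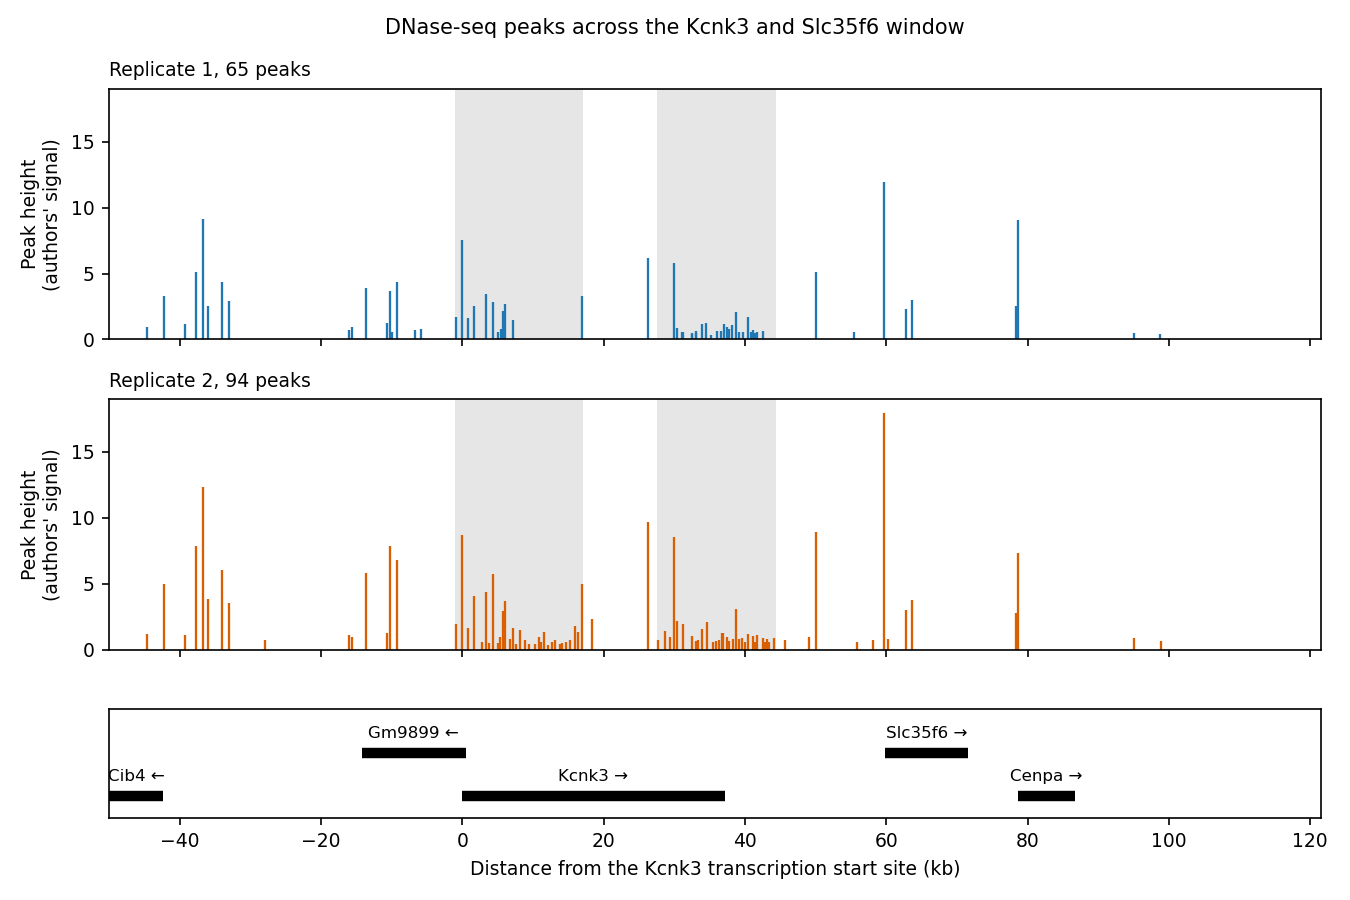
Peak height (authors' signal, vertical axis) against distance from the Kcnk3 TSS (kb, horizontal axis) in each library, with genes and their direction below. Each bar is 1 peak, and the shaded bands are the 5′ and 3′ stretches of closely spaced peaks, of which the 5′ stretch held 12 peaks in replicate 1 and 32 in replicate 2.

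The window held tall sites, which were found in both libraries, and low peaks, which were no larger a share than among all peaks. Of its peaks, 15 of 65 in replicate 1 and 22 of 94 in replicate 2 had a height of at least 3, against 15.1% and 20.4% of all peaks. Another 30 of 65 and 46 of 94 were under 1, in each library a lower share than the 54.6% and 50.1% of all peaks, though only slightly so in replicate 2. Peaks joined over the libraries into 97 sites, of which 54 were in both, 7 in replicate 1 alone and 36 in replicate 2 alone. Counted by peaks, 58 of 65 (89.2%) in replicate 1 and 58 of 94 (61.7%) in replicate 2 overlapped a peak of the other library, where 80.2% and 76.2% of all peaks did. All 22 sites that reached 3 in either library were in both. Of the 49 sites under 1 in both, 12 were in both libraries. No genome-wide share at these heights is given here, so these counts are not shown to be particular to the window.

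Tall sites stood in the upstream flank, at Kcnk3, between the genes and at Cenpa beyond Slc35f6. The tallest that was no promoter lay 36.7 kb before Kcnk3 and measured 9.17 in replicate 1 and 12.4 in replicate 2 (10.8 ± 2.26, SD, n = 2), with 7 and 8 footprints. Near it stood sites at -37.6 kb (5.14 and 7.84) and -34.0 kb (4.36 and 6.00). All 3 lay between Kcnk3 and Cib4, a gene of the calcium and integrin binding family whose own promoter measured 3.31 and 4.97.

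A further group stood inside Gm9899, a non-coding transcript read from the opposite strand that overlaps the start of Kcnk3. Its sites at -13.6 kb (3.88 and 5.80), -10.3 kb (3.71 and 7.88) and -9.29 kb (4.39 and 6.81) were higher in replicate 2. Those at -10.3 and -9.29 kb lay within 1 kb of an annotated TSS of Gm9899. Inside the intron of Kcnk3 the site at 26.3 kb measured 6.15 and 9.70, and that at 29.9 kb, 5.79 and 8.53. The site at 50.1 kb, in the middle of the space between the genes, measured 5.08 and 8.91. It was isolated: the other peaks within 5 kb of its centre were 2 low peaks of replicate 2. The promoter of Cenpa, which encodes the histone H3 variant of centromeres, was the only one of the 12 tallest sites that was higher in replicate 1, at 9.04 against 7.33.

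Heights followed each other between the libraries. Across the 54 sites in both, 46 were higher in replicate 2 and 8 in replicate 1. The median log2 ratio of replicate 2 to replicate 1 was 0.46, with a range of -0.48 to 1.85, and 0.47 and 0.45 counted over the shared peaks of replicates 1 and 2. Over all shared peaks of the genome it was 0.38 in both counts. Pearson's r of the log2 heights was 0.948 and Spearman's rho 0.932 over these 54 sites. The sites share their libraries and lie close together, so that these are descriptions.

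**Figure D2:**
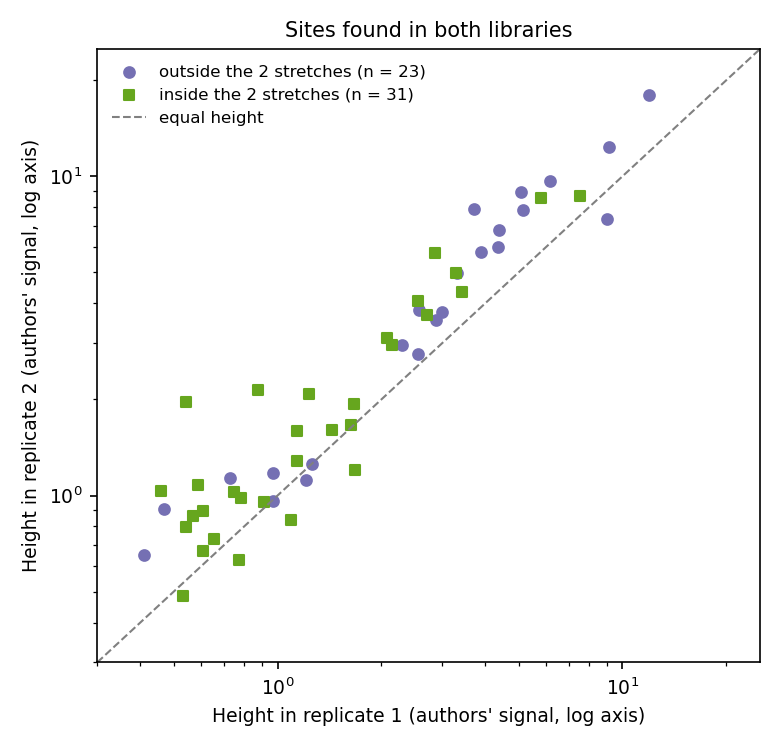
Height in replicate 2 against height in replicate 1 (authors' signal, both axes logarithmic) for the 54 sites found in both libraries, 31 inside the 2 stretches of closely spaced peaks and 23 outside. The dashed line marks equal height, and 46 sites lie above it.

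Many of the peaks stood in 2 closely spaced stretches, which also hold 6 and 2 of the 22 peaks of height 3 or more in replicate 2. To define them, after the values had been seen, peaks separated by at most 1 kb were joined into chains, and the chains of replicate 2 with at least 20 peaks were taken. The 5′ stretch ran from 1.03 kb before the Kcnk3 TSS to 17.0 kb after it, chr5:30587138-30605180. The 3′ stretch, chr5:30615726-30632560, ran from 27.6 to 44.4 kb and so covered the end of the intron, the last exon and the start of the space beyond the gene. Each was a chain of 32 peaks in replicate 2, and no other of its 27352 chains of at least 2 peaks had as many. In replicate 1, the largest chain of the window had 26 peaks and lay in the 3′ stretch, tied for the most of 25237 chains with one at Zfp503. These counts include overlapping intervals of the same list. With those merged, the chain of replicate 1 had 23 peaks and ranked behind the chain of 25 at Zfp503, and the chains of replicate 2 had 32 (5′) and 30 (3′), against at most 29 elsewhere. A chain of at least 2 peaks had a median of 2 peaks in either library.

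**Figure D3:**
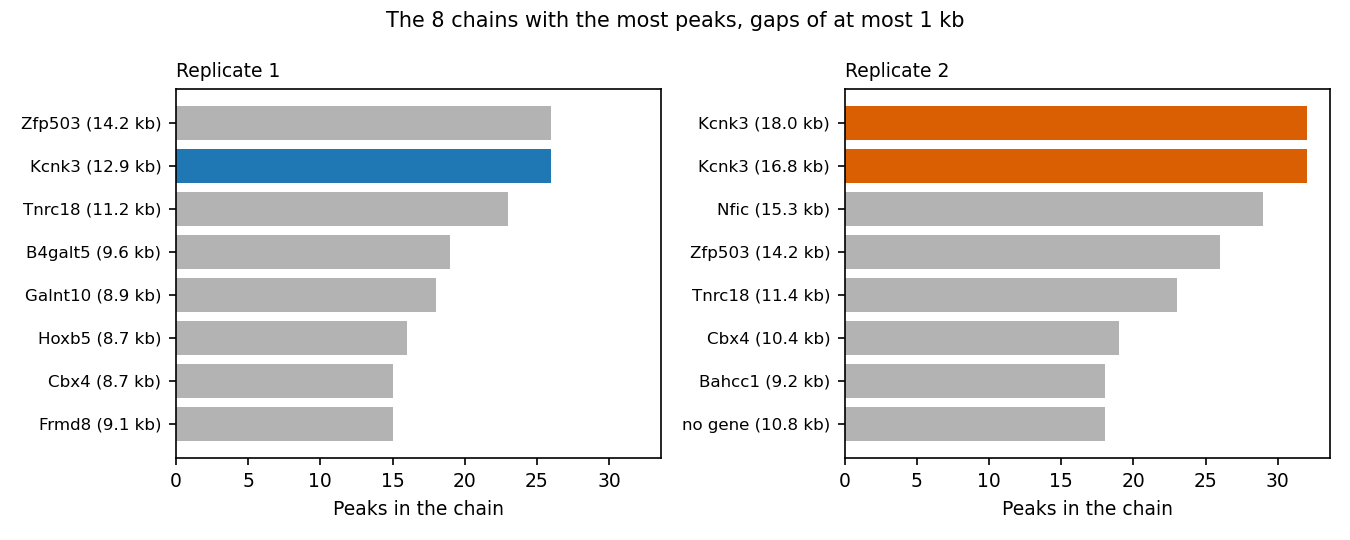
Number of peaks (horizontal axis) in the 8 chains with the most peaks in each library, where a chain joins peaks separated by at most 1 kb. Bars are labelled with an overlapping gene and the length of the chain, and the coloured bars lie at Kcnk3, with 26 peaks in replicate 1 and 32 and 32 in replicate 2.

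The 3′ stretch was dense in both libraries. It held 26 peaks in replicate 1 and 32 in replicate 2, with median heights of 0.621 and 0.878. Of these, 23 (88.5%) and 23 (71.9%) overlapped a peak of the other library. In each library 19 of its peaks were under 1. The tallest, the intron site at 29.9 kb, was 5.79 and 8.53, and the next in both libraries stood at 38.7 kb, at 2.07 and 3.12. The closest-spaced run of 5 peaks in the window lay here in both libraries: in replicate 1 at chr5:30628461-30629880, just past the gene, with centres over 1230 bp and heights of 0.505 to 1.67. In replicate 2 it lay at chr5:30623638-30625360, over the end of the last exon, with centres over 1405 bp and heights of 0.547 to 1.28. An interval of this run, chr5:30624781-30625000, lay wholly inside another, chr5:30624781-30625360. Overlapping intervals were counted separately here, so the run of replicate 2 has fewer than 5 separate peaks.

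The 5′ stretch was not the same in the libraries. Replicate 1 had 12 peaks there with a median height of 2.35, and replicate 2 had 32 with a median of 0.887. All 12 peaks of replicate 1 had a partner, and 12 of the 32 peaks of replicate 2 did (37.5%). The remaining 20 peaks were in replicate 2 alone. The sharpest difference was a piece of the intron, chr5:30595401-30604980, where over 9.58 kb replicate 1 had 0 peaks and replicate 2 had 17. Those 17 peaks were low, from 0.371 to 1.77 with a median of 0.600, and 12 of them were also in the shorter, stricter peak list. Replicate 1 had 0 footprints in this piece and replicate 2 had 27. Most footprints of the window lay in peaks, so these counts are no separate observation.

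The table of false discovery rates (FDR), which lists only positions under 0.05, showed the same pattern. It is no independent readout, since each peak of the window held bases listed in its own library. In the window it listed 20931 bases (12.2%) in replicate 1 and 33508 (19.5%) in replicate 2, or 6.97 and 10.6 times the share of the whole genome. In the 3′ stretch 52.8% and 70.8% of bases were listed, and in the 5′ stretch 15.01% and 67.4%. In the 9.58 kb piece of intron it was 0.595% in replicate 1 and 58.0% in replicate 2. At an FDR of at most 0.001 the 5′ stretch still had 9.01% and 53.2%. In the upstream flank the order was the other way, 13.4% in replicate 1 and 11.1% in replicate 2. Of the bases listed in replicate 1, 88.1% were also listed in replicate 2, and of those listed in replicate 2, 55.0% were in replicate 1.

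**Figure D4:**
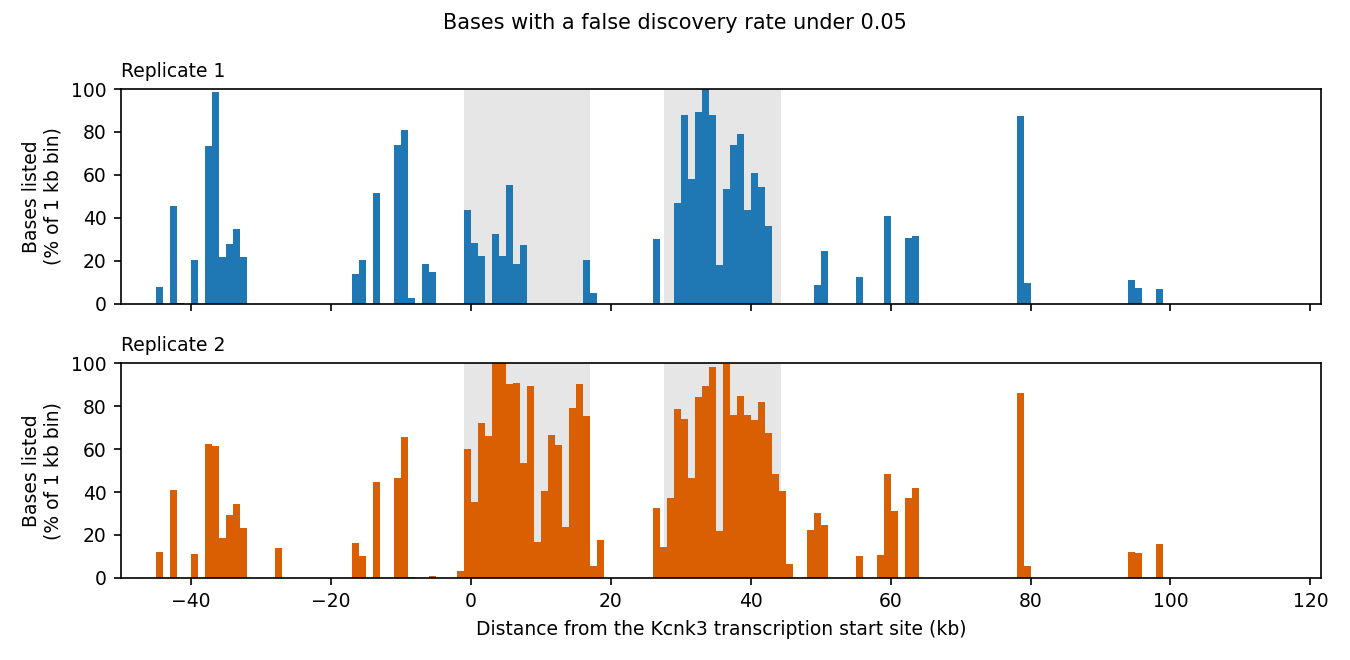
Percent of bases with an FDR under 0.05 (vertical axis) in 172 bins of 1 kb against distance from the Kcnk3 TSS (kb, horizontal axis), for each library, with the 5′ and 3′ stretches shaded. Over 50% of the bases were listed in 17 bins of replicate 1 and 30 of replicate 2, and 14 bins were in both counts.

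Height and FDR parted at the sites of the 5′ stretch. The intron site at 3.31 kb had heights of 3.43 and 4.35, with a lowest FDR of 6.75e-07 in replicate 1 and 9.80e-221 in replicate 2. The site at 4.34 kb had heights of 2.87 and 5.76 and values of 0.00019 and 8.22e-247. The site at 1.59 kb had heights of 2.55 and 4.07 and values of 0.000742 and 1.67e-174. Among the 12 sites of the 5′ stretch in both libraries, the lowest FDR was smaller in replicate 2 at 10 sites and in replicate 1 at 2. Among the 19 such sites of the 3′ stretch it was 10 and 9, and among the 23 in the rest of the window 12 and 11. The median log2 ratio of heights was 0.33 in the 5′ stretch, 0.55 in the 3′ stretch and 0.57 in the rest of the window, so the sites of the 5′ stretch did not have the larger ratio of heights. Peaks of height 2 to 4 were also compared within each library. In replicate 1 their median lowest FDR was 0.000143 in the 5′ stretch (6 peaks) and 4.39e-15 elsewhere in the window (9 peaks). In replicate 2 it was 3.45e-30 (2 peaks) and 9.1e-18 (9 peaks). Why the FDR differed was not tested.

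Peaks without a partner were all under a height of 3. The median height of all peaks was 0.897 in replicate 1 and 0.997 in replicate 2, and heights of unshared peaks over the genome are not given here. In replicate 1 the window had 7 unshared peaks, with heights of 0.346 to 0.776. The tallest, at -5.93 kb, measured 0.776. In replicate 2 there were 36, with heights of 0.371 to 2.36 and a median of 0.715, of which 25 lay in the body of Kcnk3 and 9 between the genes. Of these 36, 2 touched a base listed under an FDR of 0.05 in replicate 1, and of the 7 in replicate 1, 3 touched one listed in replicate 2. Over the genome 14.7% of the unshared peaks of replicate 1 and 13.4% of those of replicate 2 touched a base listed in the other library. The tallest, chr5:30606477-30606660 at 18.4 kb in the intron, measured 2.36 with a lowest FDR of 0.00517. The shorter, stricter lists held 46 of the window's peaks in replicate 1 (70.8%) and 70 in replicate 2 (74.5%), against 65.2% and 64.1% of all peaks.

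Footprints were many, but less than 50% touched a footprint of the other library. The window had 139 in replicate 1 and 179 in replicate 2 (159 ± 28.3, SD, n = 2), with a median length of 9 bp, and 91.4% and 88.3% of them lay in peaks, against 91.8% and 90.7% over the genome. The upstream flank had 47 and 46, the body of Kcnk3 55 and 83 and the body of Slc35f6 5 and 7. At least 1 footprint was found in 53 of 65 peaks (81.5%) and in 63 of 94 (67.0%), where 74.2% and 72.3% of all peaks had one. Of the footprints, 60 (43.2%) in replicate 1 and 62 (34.6%) in replicate 2 touched one of the other library, against 54.1% and 52.7% of all footprints.

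Elements for SF-1, the nuclear receptor that governs steroid synthesis in the cortex, were searched on both strands of each peak as AAGGTCA. They were in 13 of 65 peaks (20%) in replicate 1 and 13 of 94 (13.8%) in replicate 2, against 9.18% and 7.83% of all peaks. The longer form CAAGGTCA was in 6 (9.23%) and 7 (7.45%), against 4.44% and 4.03%. Per 10 kb of peak the short form occurred 10.01 and 6.51 times in the window and 5.62 and 4.91 times in all peaks of chromosome 5. Of 15 such elements in the window's sites, 5 touched a footprint of replicate 1 and 5 one of replicate 2, where 25.1% and 22.8% of the 1213 elements in all sites of chromosome 5 did. The 4 that touched footprints of both are those of the sites printed above, and of all elements of chromosome 5 it was 162 (13.4%). Wholly inside a footprint of each library lay 3 of the 15, against 71 of the 1213 (5.85%). At 26.3 kb the element TGACCTT touched a footprint of replicate 1 alone and so is printed in lower case there.

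The other elements searched lay on either side of their background. The AP-1 element TGANTCA was in 15 peaks (23.1%) and 14 (14.9%), against 17.8% and 14.9% of all peaks. Of its 18 occurrences 0 touched footprints of both libraries, against 16.6% of those on chromosome 5. Counted per library, 3 of the 18 (replicate 1) and 2 (replicate 2) touched a footprint, against 31.5% and 25.0% on chromosome 5. These are few occurrences, and no test was made of them. The form AAAGGTCA read by the NR4A receptors, which overlaps the SF-1 element, was in 5 peaks (7.69%) and 3 (3.19%), against 2.22% and 1.64% of all. Of its 5 occurrences 0 touched a footprint, where 24.5% (replicate 1) and 18.1% (replicate 2) of those on chromosome 5 did. So few occurrences cannot set 0 apart from these shares. The GATA element AGATAA was in 6 and 8, against 7.09% and 6.09% of all. The cyclic AMP response element TGACGTCA and the CTCF core were in 0 peaks of the window, and in 0.709% and 0.696%, and 0.308% and 0.283%, of all peaks. Both elements were so rare in all peaks that 0 cannot set the window apart from these shares. The CTCF core was searched in a single form, so that sites with other forms of it were not counted and may be present. A match describes letters of the reference and is no evidence of binding. The window was richer in G and C than chromosome 5 as a whole, at 48.6% against 42.5%, and the stretches were at 53.3% (5′) and 51.3% (3′). The part of base composition in the peak counts was not tested.

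Counted in the gene body with 50 kb on each side, Kcnk3 had 63 peaks in replicate 1 and 92 in replicate 2 (77.5 ± 20.5, SD, n = 2), where the median gene had 14 and 15. By this count it ranked at 61 and 13 of 21911 genes, and by peaks per 10 kb, 4.60 and 6.71, at 6 and 5. Slc35f6, with 37 and 61, ranked at 543 and 104 by count and at 115 and 14 by density. Among the genes outside the window nearest to Kcnk3 in mean count were Atxn1 (79 and 75 peaks) and Lpp (81 and 73). Their bodies were 415 and 599 kb long, against 37.102 kb for Kcnk3. The count of Kcnk3 also differed more between the libraries than theirs.

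The relatives of the members had fewer peaks. The members were chosen by their peak counts in these libraries, so this contrast follows largely from the choice and says nothing about the families. Of 13 other two-pore potassium channel genes, 7 (replicate 1) and 11 (replicate 2) had an open promoter. Over all protein-coding genes it was 68.6% and 69.6%. Median promoter heights of the 13 channel genes were 0.439 and 1.02. In each library 1 of them, Kcnk5, which encodes the alkaline-sensitive channel TASK-2, was taller than Kcnk3, at 8.68 and 15.9. Kcnk9, which encodes TASK-3, the closest relative of TASK-1, had none in replicate 1 and a peak of 0.521 in replicate 2. With their flanks these genes had 5 to 28 peaks in replicate 1 and 5 to 36 in replicate 2, below the 63 and 92 of Kcnk3. The 5 other Slc35f genes all had a promoter peak in both libraries, with medians of 2.45 and 4.65. Of them Slc35f5 was taller than Slc35f6, at 15.6 and 24.9.

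Of 9 genes of aldosterone control, 6 and 8 had a promoter peak in replicates 1 and 2, against 68.6% and 69.6% of all protein-coding genes. Clcn2, a chloride channel, reached 6.62 and 10.4. At Cyp11b2, whose product completes aldosterone synthesis, neither library had one. The calcium channel genes Cacna1d (51 and 44 peaks) and Cacna1h (31 and 43), counted with their flanks, had fewer peaks than Kcnk3 in both libraries. Here too Kcnk3 had been chosen by its count.

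**Figure D5:**
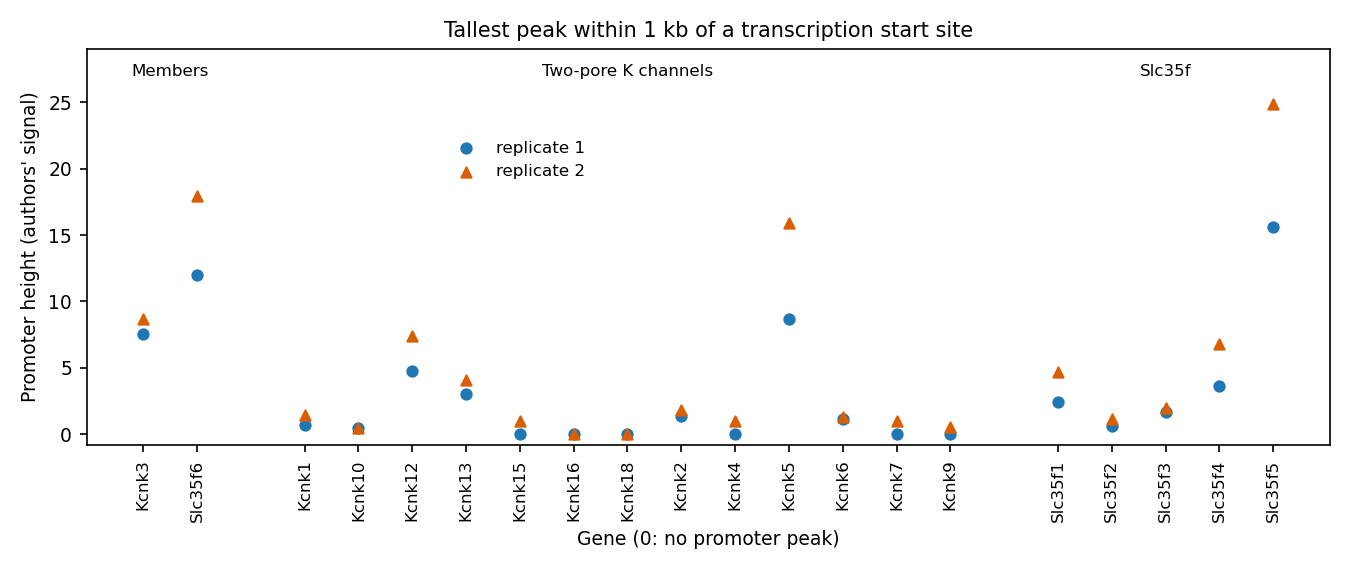
Promoter height (authors' signal, vertical axis) of the tallest peak within 1 kb of a TSS, for Kcnk3 and Slc35f6 and the 2 families of related genes, with 1 circle for replicate 1 and 1 triangle for replicate 2 at each gene. A value of 0 means no promoter peak, and among the 13 other two-pore channels Kcnk5 alone lies above Kcnk3 in both libraries, at 8.68 and 15.9.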

How the data were processed

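DNase-seq peaks, FDR tables and footprints of 2 adrenal libraries on mm10 were used as deposited. They come from the filtered alignments of the same library, replicates not pooled, per the labels and the deposited sample notes. Aligner and peak caller: not given in the sources used here. Deposited peak heights are a signal scaled by the authors, and within each library they are whole multiples of 1 step (0.00934 and 0.00883, 100% within a tolerance of 0.05 steps). The depth is not given, so that no counting interval was computed. The deposited FDR tables hold p-value-like numbers (q-values) and list only those under 0.05. The footprint lists, as the authors deposited them, carry the constant 0.01 in the p-value column, which allows no ranking.

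The longer peak list of each library was used (the shorter had 103823 and 107539 peaks). A promoter peak reached within 1 kb of a TSS of GENCODE M21 (basic set), and peaks overlapping by at least 1 bp were shared. Overlapping peaks of the libraries formed a site. Elements were searched on both strands of the reference sequence. Computations used Python 3.11.15, numpy 2.4.6, pandas 2.3.3, scipy 1.17.1 and matplotlib 3.10.9, and were tested on simulated data. With 1 group of 2 libraries no test was possible, so that values are given per library, with mean ± SD.

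The members, lists and elements were chosen with earlier results of these data known. Genes named are the members, protein-coding genes in the window, the 3 nearest Kcnk3 in peak count and members of the lists. Some genes that these rules name are not reported here. Sites named are the member promoters, the 12 tallest shared sites, the tallest in 1 library alone and the closest run of 5 peaks. Zfp503, Gm9899, the stretches, the sites whose FDR is given, the sites at 16.9 and 38.7 kb and the list members singled out were chosen after their values were seen. Alternatives were the shorter list, flanks of 10 and 100 kb, a 50% reciprocal overlap, promoters within 500 bp, scaling by median height, an FDR of 0.001, a longer SF-1 element, each library alone and, added after seeing the data, merged peaks.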

Additional observations from a re-analysis of the deposited data

How the results depend on the processing

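Of 55 alternative values, 46 stayed close to the reported value, which means within 1.5 times for counts and within 1 SD of the replicates for other values, 9 moved and 0 changed sign. Some counts that stayed within 1.5 times lay outside the replicates' range: 58 peaks with the shorter list, 64 peaks and 121 footprints with flanks of 10 kb, and 18324.5 listed bases at an FDR of 0.001. The mean density of the window, 4.63 peaks per 10 kb, became 3.38 with the shorter list, 6.99 with flanks of 10 kb and 3.31 with flanks of 100 kb. The median log2 height ratio of shared peaks, 0.46, became 0.50 with the shorter list, 0.42 with flanks of 10 kb and 0.31 after dividing heights by their library's median, which shifts all ratios by 0.15. The median spacing, 680 bp, became 864.5 bp with the shorter list. The mean share of peaks with an SF-1 element, 16.9%, became 8.34% with the longer element, as fewer sequences match it. The mean rank of Kcnk3 by peak count, 37, became 79.5 with flanks of 10 kb; the cause was not tested. With 1 library left out, the count of window peaks ranged from 65 to 94, the density from 3.79 to 5.48, the spacing from 590 to 770 bp and the footprints from 139 to 179. The Kcnk3 promoter height ranged from 7.55 to 8.70, that of Slc35f6 from 11.95 to 17.9, and the listed bases from 20931 to 33508. The SF-1 share ranged from 13.8% to 20% and the rank from 13 to 61. The 5′ stretch thus rests on replicate 2: replicate 1 had 12 peaks there, and its largest chain there had 7, under the 20 required. The rank of 13 also rests on replicate 2, and replicate 1 alone gave 61. No paired analysis was possible because there is only 1 group. The libraries' depth is not known, so that an uncalled low peak is not shown to be closed chromatin.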
